A study of Bos taurus with 20 samples.

Results

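FADS2, SCD, ELOVL1, ELOVL5, FDFT1, MOGAT1 and SLC27A6 were followed across bovine embryos at day 14 of development. They were chosen by gene symbol, with earlier results of these data known. All 7 symbols were found among the 15542 genes of the deposited table of expression values. All 7 also passed a filter on low values that kept 10599 genes. The libraries came from trophectoderm (TE) of vitrified embryos (7 samples), TE of fresh embryos (5 samples), vitrified whole embryos (2 samples) and fresh whole embryos (6 samples), all recovered from the uterus. TE is the outer epithelium of the embryo that later forms the placenta, and vitrification is ice-free freezing in a high concentration of cryoprotectant. The labels do not give the breed, the cryoprotectant, the stage at freezing, the way the TE was isolated, or whether a TE sample and a whole embryo came from the same animal. They also do not say that samples of a group came from separate cultures or donors, so p-values measure the spread between these samples.

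The genes act at successive points of lipid metabolism. SLC27A6 is a carrier of the fatty acid transport protein family. SCD desaturates stearoyl-CoA to oleoyl-CoA, and FADS2 starts the desaturation of linoleic and alpha-linolenic acid to long polyunsaturated fatty acids. ELOVL1 elongates saturated and monounsaturated acyl-CoAs towards the very long chains of sphingolipids, and ELOVL5 elongates polyunsaturated ones. MOGAT1 adds a fatty acid to monoacylglycerol, a route to triglyceride, and FDFT1 is squalene synthase, which commits farnesyl diphosphate to sterols. Embryos of cattle are rich in cytoplasmic lipid, and the elongating TE is known for storing lipid droplets and for expressing PPARG, a nuclear receptor for fatty acids and prostaglandins.

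Libraries held 6.01 to 14.53 M reads, where M stands for 1000000. The values were reads per kilobase of a gene's genomic span, introns included, and per M reads of the library (RPKM), so a level is compared here between samples and not between genes. The 5 fresh TE libraries stood apart. The listed genes took 33.8 to 40.3% of their reads, against 57.5 to 63.9% in the 15 other libraries, and mitochondrial messenger RNAs took 8.04 ± 1.44% of the listed reads in vitrified TE, against 1.23 ± 0.144% in fresh TE (SD, n = 7 and 5). Fresh TE libraries 1 and 2, and likewise 3 and 4, were near-identical, with a chi-square of their reads of 1.80 and 1.45 for each degree of freedom, where other fresh TE pairs gave 10.5 to 19.7. As deposited, the median ratio of mean RPKM of the tested genes was 1.31 (log2) in vitrified against fresh TE. On the log2(RPKM + 1) scale of the tests below, the median log2 fold change was 0.18. Median-ratio scaling divides each library by the median ratio of its genes to their mean over libraries. After it these 2 values were 0.20 and 0.01, so differences of members against fresh TE are given under both scalings. Of 16 TE marker symbols 15 were found, and their summed level was 2603 to 3730 RPKM in vitrified TE, 2770 to 3589 in fresh TE, 2935 to 3455 in vitrified whole embryos and 1868 to 2654 in fresh whole embryos. After median-ratio scaling that sum was 2053 to 3146 in vitrified TE, 5159 to 6058 in fresh TE, 2207 to 2308 in vitrified whole embryos and 1661 to 2449 in fresh whole embryos, so that the TE markers too were higher in all fresh TE libraries than in the rest. Of 15 epiblast markers 13 were found, with sums of 18.7 to 51.2 RPKM in vitrified TE, 1.98 to 4.79 in fresh TE, 81.9 to 105 in vitrified whole embryos and 13.3 to 68.1 in fresh whole embryos, and after scaling 15.8 to 41.5 in vitrified TE, 3.45 to 8.08 in fresh TE, 61.6 to 69.9 in vitrified whole embryos and 12.2 to 55.1 in fresh whole embryos. LIN28B and LEFTY2 of that list were at 0 in all fresh TE libraries, and neither passed the filter on low values. Of 18 hypoblast markers 15 were found, at 736 to 1579 RPKM in vitrified TE, 158 to 335 in fresh TE, 307 to 788 in vitrified whole embryos and 660 to 1176 in fresh whole embryos. The scaled hypoblast sums were 616 to 1332 in vitrified TE, 279 to 575 in fresh TE, 205 to 593 in vitrified whole embryos and 609 to 978 in fresh whole embryos. The part that these differences play in the results below was not tested. In bulk samples, fewer cells of a type and less RNA per cell cannot be told apart.

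**Figure D1:**
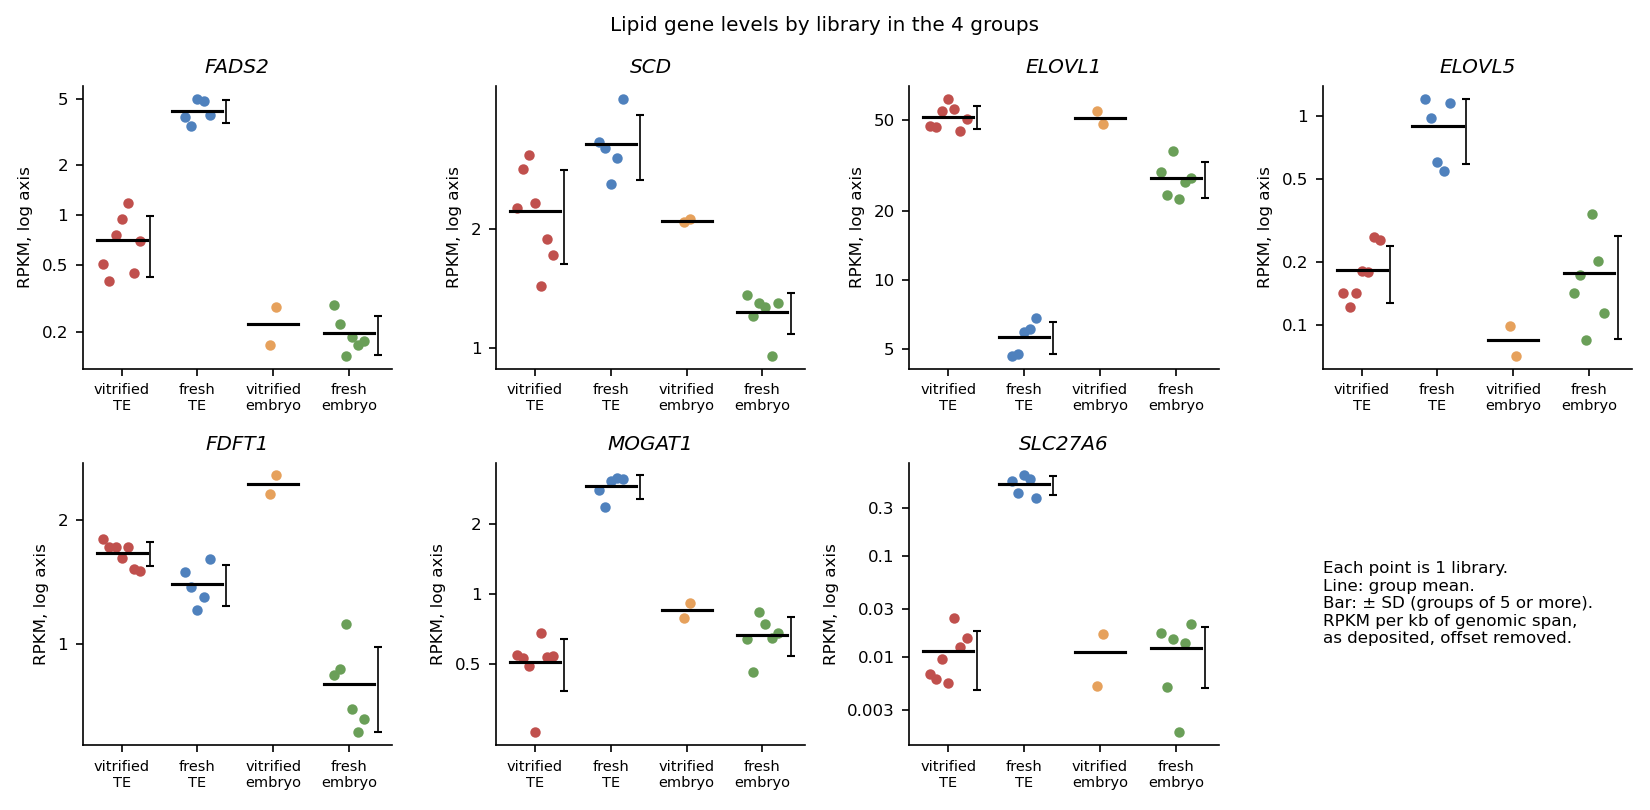
Level of each of the 7 genes in every library (RPKM with the deposited offset of 0.01 subtracted, log axis), with vitrified TE, fresh TE, vitrified whole embryos and fresh whole embryos from left to right. Points are libraries, and black marks with bars are the mean ± SD of groups of more than 2 libraries. FADS2, MOGAT1, ELOVL5 and SLC27A6 stood higher in all 5 fresh TE libraries than in any other library, and ELOVL1 stood lower.

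SLC27A6, the fatty acid carrier, was measured at 0.00548, 0.0095 and 0.0245 RPKM in vitrified TE (lowest, median and highest of 7), against 0.560, 0.427, 0.636, 0.582 and 0.382 RPKM in fresh TE. It stood at 0.00518 and 0.0171 RPKM in the vitrified whole embryos, against 0.00179, 0.0143 and 0.0214 RPKM in fresh whole embryos (lowest, median and highest of 6). The fresh TE libraries formed a group of their own, and the ranges of the other 3 groups overlapped. In reads, vitrified TE libraries held 4 to 20, fresh TE libraries 234 to 458, the vitrified whole embryos 4 and 14, and fresh whole embryos 1 to 23. The mean level was 45.1-fold lower in vitrified than in fresh TE, and 41.9-fold lower in fresh whole embryos than in fresh TE. After median-ratio scaling these folds were 96.6 and 82.9. With limma, which was fitted across all tested genes on log2(RPKM + 1), SLC27A6 fell by 0.58 ± 0.03 (SE) in vitrified against fresh TE (adjusted p = 9.1e-12), and by 0.91 ± 0.04 after scaling. That scale understates the change of genes far under 1 RPKM. On the log2 scale of the recovered reads, with a weight for the precision of each value, the difference was -5.57. The gene spans chromosome 7 from 26237929 to 26329595 on the minus strand (UMD3.1).

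FADS2, the desaturase of polyunsaturated fatty acids, was present at 0.405, 0.703 and 1.18 RPKM in vitrified TE (lowest, median and highest), against 3.89, 3.45, 4.98, 4.81 and 3.96 RPKM in fresh TE. Its level was 0.167 and 0.280 RPKM in the vitrified whole embryos, against 0.144, 0.181 and 0.290 RPKM in fresh whole embryos (lowest, median and highest). All fresh TE libraries were above all vitrified TE libraries, and these were in turn above every whole embryo, whether vitrified or fresh. FADS2 fell by 1.62 ± 0.10 on the log2(RPKM + 1) scale in vitrified against fresh TE (adjusted p = 9.3e-11), or 5.95-fold by mean RPKM. After median-ratio scaling it fell by 2.42 ± 0.09, or 12.7-fold. It was lower by 2.12 ± 0.10 in fresh whole embryos than in fresh TE (log2 fold change -2.12, adjusted p = 3.4e-11), which is 21.4-fold by mean RPKM and 41.7-fold after scaling (log2 fold change -2.83). It was higher in vitrified TE than in fresh whole embryos (log2 fold change 0.50 ± 0.10, adjusted p = 0.00031). The vitrified and fresh whole embryos overlapped (log2 fold change 0.03 ± 0.14, adjusted p = 0.89).

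FADS2 lies on chromosome 29 from 41045232 to 41082249 on the plus strand, between its relatives FADS1 and FADS3, which are both on the minus strand. FADS3 starts 5282 bp after it, and its level ran the other way. FADS3 averaged 15.2 ± 1.77 RPKM in vitrified TE and 0.465 ± 0.0769 RPKM in fresh TE (SD, n = 7 and 5), a log2 fold change of 3.46 (adjusted p = 3.9e-14), which was 2.88 after median-ratio scaling. It averaged 15.1 RPKM in the vitrified whole embryos and 5.16 ± 0.890 RPKM in fresh whole embryos (n = 2 and 6), a log2 fold change of 1.39 (adjusted p = 9.7e-06). FADS1, which acts after FADS2 in the same pathway and lies 92343 bp before it, was close to 0 in all groups (means of 0.0506, 0.0296, 0.0283 and 0.0179 RPKM in vitrified TE, fresh TE, vitrified and fresh whole embryos) and did not pass the filter.

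SCD, the stearoyl-CoA desaturase, differed less between groups. It was found at 1.43, 2.26 and 3.06 RPKM in vitrified TE (lowest, median and highest), against 3.3, 3.2, 2.6, 3.0 and 4.2 RPKM in fresh TE. Vitrified whole embryos had 2.08 and 2.11 RPKM, against 0.956, 1.28 and 1.36 RPKM in fresh whole embryos (lowest, median and highest). Vitrified and fresh TE overlapped as deposited, and both vitrified whole embryos were above all 6 fresh ones. SCD fell by 0.42 ± 0.12 on the log2 scale in vitrified against fresh TE (adjusted p = 0.0032). After median-ratio scaling these 2 groups no longer overlapped (1.20 to 2.38 in vitrified TE, 4.44 to 7.37 in fresh TE) and the log2 fold change was -1.28. In vitrified against fresh whole embryos SCD was called higher as deposited (log2 fold change 0.47 ± 0.16, adjusted p = 0.032) but not after median-ratio scaling (0.25 ± 0.16, adjusted p = 0.31). The order of its levels was fresh TE, vitrified TE, vitrified whole embryos and fresh whole embryos, from high to low, and the vitrified TE and vitrified whole embryos overlapped. SCD spans chromosome 26 from 21141592 to 21148319 on the minus strand.

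ELOVL1, the elongase of saturated and monounsaturated chains, was the member that was higher in vitrified TE than in fresh TE. Its level was 44.8, 50.7 and 62.0 RPKM in vitrified TE (lowest, median and highest), against 4.66, 4.76, 5.89, 6.10 and 6.79 RPKM in fresh TE. It was 54.7 and 47.9 RPKM in the vitrified whole embryos, against 22.7, 27.5 and 36.6 RPKM in fresh whole embryos (lowest, median and highest). No fresh TE library came near any other library, both vitrified groups overlapped each other, and every vitrified library was above every fresh one. ELOVL1 rose by 2.99 ± 0.12 on the log2 scale in vitrified against fresh TE (adjusted p = 7.3e-13), a 9.18-fold difference of mean RPKM, and by 1.98 ± 0.12, or 4.26-fold, after median-ratio scaling. It rose by 0.87 ± 0.17 in vitrified against fresh whole embryos (adjusted p = 0.0011), and by 0.54 ± 0.17 after median-ratio scaling (adjusted p = 0.030). It was also higher in fresh whole embryos than in fresh TE (log2 fold change 2.12 ± 0.13, adjusted p = 2.5e-10, and 1.25 ± 0.12 after scaling).

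ELOVL1 spans chromosome 3 from 103233547 to 103238304 on the plus strand and ends 182 bp from CDC20, a cell-cycle gene on the minus strand, so the 2 genes meet tail to tail. Whether strand was used in counting is not given in the sources used here, and the counts of the 2 genes may share reads at that end. CDC20, named after its place was seen, averaged 31.9 ± 5.33 RPKM in vitrified TE and 6.59 ± 1.49 RPKM in fresh TE (SD, n = 7 and 5). It averaged 35.8 RPKM in the vitrified whole embryos and 15.1 ± 2.37 RPKM in fresh whole embryos (n = 2 and 6). CDC20 had a log2 fold change of 2.12 in vitrified against fresh TE and of 1.11 after median-ratio scaling.

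ELOVL5, the elongase of polyunsaturated chains, ran opposite to ELOVL1 in TE. It was measured at 0.122, 0.179 and 0.265 RPKM in vitrified TE (lowest, median and highest), against 1.21, 0.977, 0.602, 0.548 and 1.15 RPKM in fresh TE. It stood at 0.0988 and 0.0716 RPKM in the vitrified whole embryos, against 0.0855, 0.158 and 0.341 RPKM in fresh whole embryos (lowest, median and highest). Fresh TE did not overlap any other group, while fresh whole embryos overlapped both vitrified groups. Both vitrified whole embryos were below all vitrified TE libraries, by 2.16-fold in mean RPKM and by 2.46-fold after median-ratio scaling. With limma this difference was not called (log2 fold change -0.12 ± 0.11 as deposited, adjusted p = 0.43). ELOVL5 fell by 0.67 ± 0.08 on the log2 scale in vitrified against fresh TE (adjusted p = 3.4e-07), or 4.87-fold by mean RPKM. After median-ratio scaling it fell by 1.14 ± 0.10, or 10.6-fold. It was 5.06-fold lower in fresh whole embryos than in fresh TE (log2 fold change -0.68, adjusted p = 7.3e-07), and 9.92-fold lower after scaling (log2 fold change -1.13). Its log2 fold change in vitrified against fresh whole embryos was -0.11 ± 0.11 (adjusted p = 0.45). ELOVL5 spans chromosome 23 from 25155743 to 25228998 on the minus strand.

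MOGAT1, the monoacylglycerol acyltransferase, was found at 0.253, 0.534 and 0.677 RPKM in vitrified TE (lowest, median and highest), against 2.81, 2.36, 3.09, 3.16 and 3.14 RPKM in fresh TE. Vitrified whole embryos had 0.789 and 0.914 RPKM, against 0.458, 0.663 and 0.837 RPKM in fresh whole embryos (lowest, median and highest). Every fresh TE library was above every other library, and the fresh whole embryos overlapped both vitrified groups. MOGAT1 fell by 1.38 ± 0.07 on the log2 scale in vitrified against fresh TE (adjusted p = 2.0e-11), or 5.73-fold by mean RPKM. After median-ratio scaling it fell by 2.11 ± 0.06, or 12.4-fold. It was 4.37-fold lower in fresh whole embryos than in fresh TE (log2 fold change -1.23, adjusted p = 3.6e-10), and 8.63-fold lower after scaling (log2 fold change -1.94). In vitrified against fresh whole embryos the log2 fold change was 0.15 ± 0.10 (adjusted p = 0.27). MOGAT1 spans chromosome 2 from 111602255 to 111631565 on the plus strand.

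FDFT1, squalene synthase, had 1.51, 1.72 and 1.80 RPKM in vitrified TE (lowest, median and highest), against 1.49, 1.38, 1.21, 1.30 and 1.61 RPKM in fresh TE. It had 2.32 and 2.57 RPKM in the vitrified whole embryos, against 0.612, 0.769 and 1.12 RPKM in fresh whole embryos (lowest, median and highest). As deposited, vitrified whole embryos were above all other libraries and fresh whole embryos below them, with overlap between vitrified and fresh TE. FDFT1 rose by 0.94 ± 0.10 on the log2 scale in vitrified against fresh whole embryos (adjusted p = 6.9e-06), and by 0.68 ± 0.09 after median-ratio scaling (adjusted p = 0.00016). The direction in vitrified against fresh TE turned with the scaling. The log2 fold change was 0.15 ± 0.07 as deposited (adjusted p = 0.054) and -0.56 ± 0.07 after median-ratio scaling (adjusted p = 7.4e-07). As deposited it was called higher without vitrified TE 6, vitrified TE 7, fresh TE 5 or fresh whole embryo 3. The scaled levels were 1.20 to 1.46 in vitrified TE, 2.07 to 2.80 in fresh TE, 1.72 and 1.74 in vitrified whole embryos and 0.544 to 0.906 in fresh whole embryos. On that scale every fresh TE library was above the vitrified whole embryos, and fresh whole embryos were still below all other libraries. FDFT1 spans chromosome 8 from 7427461 to 7453907 on the minus strand.

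Vitrified TE against fresh TE compares the samples labelled TE with and without vitrification. SLC27A6, FADS2, SCD, ELOVL5 and MOGAT1 fell and ELOVL1 rose as deposited, which is 5 lower and 1 higher of the 7. Across all tested genes 6.66% were called lower and 69.0% higher, 75.6% in all. After median-ratio scaling 6 members were lower and 1 higher, where 27.4% of all genes were lower and 35.2% higher (62.6% in all). The median log2 fold change of the 7 was -0.58 as deposited and -1.14 after scaling. The 7 were chosen with earlier results of these data known, so their counts beside these shares, here and below, are not a test. Counting each near-identical pair of fresh TE libraries once changed no member's call. The fresh TE libraries are also those with the low share of reads in listed genes, and the labels give no batch. Their epiblast and hypoblast marker sums were also below those of all vitrified TE libraries, under both scalings. A difference of handling, sequencing or cell content and the effect of vitrification therefore cannot be told apart here.

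**Figure D2:**
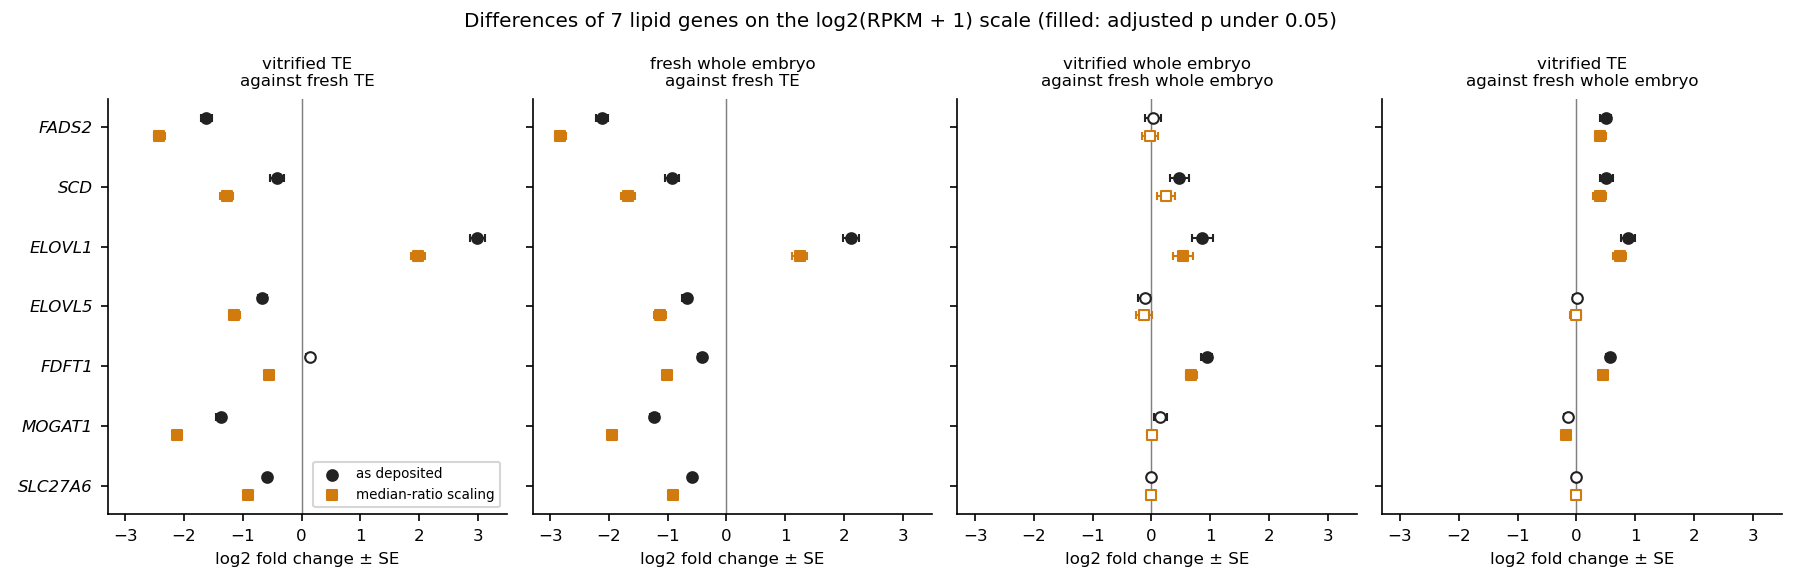
Log2 fold change ± SE (limma, log2(RPKM + 1) scale) of the 7 genes in 4 comparisons, as deposited (black circles) and after median-ratio scaling (orange squares). Filled symbols passed an adjusted p of 0.05. In both comparisons against fresh TE, ELOVL1 lies to the right of 0 and the other members to the left, except FDFT1 in vitrified TE as deposited (0.15).

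Fresh whole embryo against fresh TE sets the intact embryo beside its outer epithelium without vitrification. ELOVL1 was higher and SLC27A6, FADS2, SCD, ELOVL5, FDFT1 and MOGAT1 were lower in whole embryos, under both scalings. That is 1 higher and 6 lower of 7, against 60.0% higher and 5.97% lower of all tested genes (66.0% in all) as deposited, and 30.0% higher and 25.0% lower (55.0% in all) after scaling. FDFT1 was lower by 0.42 as deposited (log2 fold change -0.42 ± 0.07, adjusted p = 4.6e-05) and SCD by 0.93 (log2 fold change -0.93 ± 0.12, adjusted p = 2.0e-06). The scaled log2 fold changes were -1.02 for FDFT1 and -1.67 for SCD. This comparison and the one before share the fresh TE libraries, so their like directions are not separate evidence. The low share of listed genes in fresh TE applies here too. A difference of tissue and one of handling or sequencing therefore cannot be told apart.

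Vitrified whole embryo against fresh whole embryo compares vitrified with fresh samples of like tissue, without fresh TE in either group. The spread in its fit still came from all 20 samples. ELOVL1, FDFT1 and SCD rose as deposited and none of the 7 fell, where 26.9% of all tested genes were called higher and 3.94% lower (30.9% in all). After median-ratio scaling ELOVL1 and FDFT1 were still called, where 10.6% of genes were higher and 6.99% lower (17.6% in all). FADS2, ELOVL5, MOGAT1 and SLC27A6 were not called under either scaling. The vitrified whole embryos numbered 2, and without vitrified whole embryo 1, vitrified whole embryo 2 or fresh whole embryo 5 SCD was no longer called.

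Vitrified TE against fresh whole embryo compares groups that differ both in tissue and in vitrification and whose libraries had a like share of listed genes. ELOVL1 (log2 fold change 0.87 ± 0.12), FDFT1 (0.57 ± 0.07), SCD (0.51 ± 0.11) and FADS2 (0.50 ± 0.10) were higher in vitrified TE under both scalings, with adjusted p of 9.5e-06, 1.8e-06, 0.00090 and 0.00031. The share of all tested genes called was 48.9%, with 31.2% higher and 17.7% lower, and after scaling 46.1%, with 24.5% higher and 21.6% lower. MOGAT1 was called lower after median-ratio scaling alone (log2 fold change -0.17, adjusted p = 0.025), and as deposited it had -0.14 (adjusted p = 0.099), or -0.18 without fresh whole embryo 2, where it was called. ELOVL5 and SLC27A6 were not called, with adjusted p of 0.92 and 0.98 as deposited.

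Vitrified whole embryo against vitrified TE showed smaller differences. As deposited, FDFT1 (log2 fold change 0.37 ± 0.09, adjusted p = 0.014) and MOGAT1 (0.30 ± 0.10, adjusted p = 0.047) were higher and FADS2 (-0.47 ± 0.14, adjusted p = 0.026) was lower in vitrified whole embryos, where 18.9% of all tested genes were called (15.3% higher and 3.59% lower). FDFT1 and MOGAT1 were not called after median-ratio scaling (log2 fold changes 0.22 and 0.18), which called 5.92% of all genes (3.24% higher and 2.68% lower), and FADS2 was at the threshold (log2 fold change -0.44, adjusted p = 0.050). Without vitrified whole embryo 2 none of the 7 was called, and without vitrified whole embryo 1 FDFT1 alone was. MOGAT1 was called in 6 of the 20 fits that left out a sample.

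The difference of the vitrification effects, in whole embryos minus in TE, was tested as an interaction. All 7 members were called, 6 higher and 1 lower, against 3.98% higher and 28.4% lower of all tested genes (32.3% in all). ELOVL1 had an interaction of -2.12 ± 0.21 (adjusted p = 1.5e-06) on the log2 scale, since it rose more in TE than in whole embryos. FADS2 had 1.65 ± 0.17 (adjusted p = 2.3e-06) and MOGAT1 1.53 ± 0.13 (adjusted p = 1.7e-07), and neither was called in whole embryos alone. After median-ratio scaling the interaction was -1.44 for ELOVL1, 2.39 for FADS2 and 2.12 for MOGAT1. Each of the 7 kept its direction and its call after median-ratio scaling, where 14.0% of all genes were higher and 13.2% lower (27.1% in all). The interaction holds the fresh TE libraries in it and shares their properties.

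Ratios of members within a library do not depend on how that library was scaled. The ratio of ELOVL1 to ELOVL5 was 169, 332 and 385 in vitrified TE (lowest, median and highest), against 3.86, 5.92 and 11.1 in fresh TE. It was 554 and 669 in the vitrified whole embryos, against 66.6, 172 and 428 in fresh whole embryos. The 2 elongases were thus in another proportion in fresh TE than in every other library. The ratio of SCD to FADS2 was 1.2, 4.0 and 7.0 in vitrified TE, against 0.521, 0.848 and 1.07 in fresh TE. It was 7.51 and 12.5 in the vitrified whole embryos, against 4.69, 6.28 and 9.05 in fresh whole embryos. The ratio of MOGAT1 to SLC27A6 was 27.7, 46.1 and 87.6 in vitrified TE, against 4.86, 5.44 and 8.23 in fresh TE. It was 53.6 and 152 in the vitrified whole embryos, against 31.7, 51.6 and 413 in fresh whole embryos. Outside fresh TE this ratio is imprecise, since SLC27A6 had 1 to 23 reads in each library. The value of 413 came from fresh whole embryo 4, with 1 read of SLC27A6. For these 3 ratios the fresh TE libraries lay below all other libraries. The ratio of FDFT1 to SCD was 0.563, 0.800 and 1.20 in vitrified TE, against 0.380, 0.434 and 0.466 in fresh TE. It was 1.11 and 1.22 in the vitrified whole embryos, against 0.506, 0.630 and 0.860 in fresh whole embryos. The fresh TE libraries were below the rest here too, and both vitrified whole embryos were above all fresh ones. Since RPKM is per genomic span, the size of a ratio depends on the introns of both genes, and its change between libraries does not.

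**Figure D3:**
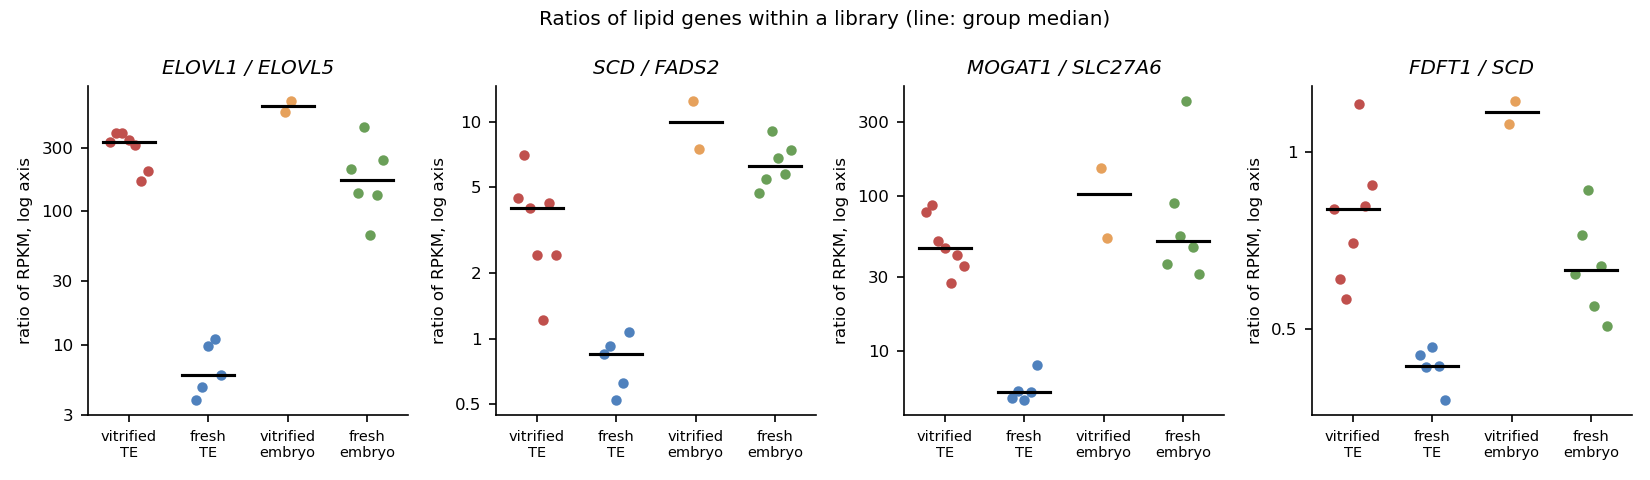
Ratio of the levels of 2 members within each library (log axis), for ELOVL1 to ELOVL5, SCD to FADS2, MOGAT1 to SLC27A6 and FDFT1 to SCD, with vitrified TE, fresh TE, vitrified whole embryos and fresh whole embryos from left to right. Points are libraries and lines are group medians. The fresh TE libraries lie below all other libraries in the 4 ratios.

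The neighbouring steps of the pathways were counted in lists, in vitrified against fresh TE unless another comparison is named. The counts stand beside the shares of all tested genes in that comparison, 69.0% higher and 6.66% lower as deposited, and 35.2% and 27.4% after median-ratio scaling. Among desaturases 3 rose, 2 fell and 2 were not called of 7 tested, and 3 rose and 3 fell after scaling. Both that fell as deposited were the members FADS2 and SCD, and of the 5 others 3 rose and none fell. Those that rose were FADS3 and the dihydroceramide desaturases DEGS1 and DEGS2, which act on sphingolipids. The log2 fold change was 1.52 for DEGS1 and 1.19 for DEGS2, and after scaling 0.44 for DEGS1 (adjusted p = 0.046) and 0.96 for DEGS2. Of 10 tested genes of the elongation cycle, ELOVL1 and ELOVL5 included, 7 rose and 2 fell, a share near that of all genes, and after scaling 4 rose and 4 fell. Without these members 6 rose and 1 fell of 8, and 3 rose and 3 fell after scaling. TECR, the reductase that ends each cycle, averaged 3.98 ± 0.446 RPKM in vitrified TE and 0.346 ± 0.0411 RPKM in fresh TE (SD, n = 7 and 5), a log2 fold change of 1.88 (adjusted p = 2.1e-10), and 1.39 after scaling. The dehydratases HACD3 and HACD2 rose by 0.92 and 0.38, and by 0.33 and 0.13 after scaling. ELOVL6, which elongates palmitate, turned with the scaling (0.17 as deposited, -0.32 after it).

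Fatty acid synthesis genes rose in 8 of 9 tested and fell in 1, against 5 and 1 after median-ratio scaling, where all tested genes had 69.0% higher as deposited and 35.2% after scaling. SLC25A1, the mitochondrial citrate carrier, averaged 17.6 ± 3.13 RPKM in vitrified TE and 2.37 ± 0.652 RPKM in fresh TE, a log2 fold change of 2.47 (adjusted p = 5.3e-10), and 1.57 after scaling. MCAT, of mitochondrial fatty acid synthesis, rose by 1.45, and by 0.79 after scaling. ACLY, which makes cytosolic acetyl-CoA from citrate, was 0.51 higher as deposited and was not called after scaling (-0.13, adjusted p = 0.27).

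Counts for cholesterol synthesis, the pathway of FDFT1, moved with the scaling. As deposited 6 of 21 tested genes rose, 5 fell and 10 were not called in vitrified against fresh TE, with a median log2 fold change of 0.05. After median-ratio scaling 2 rose, 18 fell and 1 was not called, with a median of -0.56. Across all tested genes 69.0% were higher and 6.66% lower as deposited, and 35.2% and 27.4% after scaling, with medians of 0.18 and 0.01. In fresh whole embryos against fresh TE 3 were higher and 11 lower as deposited, where 60.0% of all genes were higher and 5.97% lower. After scaling none were higher and 18 lower (median -0.72), against 30.0% higher and 25.0% lower of all genes. In vitrified against fresh whole embryos 7 were higher and none lower as deposited, against 26.9% and 3.94% of all genes. After scaling 1, FDFT1 itself, was higher, where 10.6% of all genes were higher and 6.99% lower. HSD17B7, a sterol ketoreductase, was 0.107 ± 0.0284 RPKM in vitrified TE and 0.317 ± 0.0387 RPKM in fresh TE, and lower under both scalings (log2 fold changes -0.25 and -0.52). LBR, a sterol reductase of the nuclear envelope, was higher under both (0.73 and 0.21), and ACAT2, which joins acetyl-CoA units, as deposited alone (0.93 and 0.02). SQLE, which acts right after FDFT1, had a log2 fold change of 0.18 as deposited (adjusted p = 0.23) and -0.54 after scaling (adjusted p = 0.0019).

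Triglyceride synthesis genes, with MOGAT1 among them, rose in 8 and fell in 3 of 13 tested, and rose in 4 and fell in 6 after median-ratio scaling. Without MOGAT1 8 rose and 2 fell of 12, and 4 rose and 5 fell after scaling. The share of all tested genes that were higher was 69.0% as deposited and 35.2% after scaling. The share that were lower was 6.66% and 27.4%. GPAM, the mitochondrial glycerol-3-phosphate acyltransferase, shared the direction of MOGAT1. It averaged 0.187 ± 0.0352 RPKM in vitrified TE and 0.851 ± 0.148 RPKM in fresh TE, a log2 fold change of -0.64 (adjusted p = 1.4e-10) and of -1.11 after scaling. LPIN2, a phosphatidate phosphatase, and GPAT4, the acyltransferase of the endoplasmic reticulum, rose by 0.58 and 0.69, and by 0.45 and 0.27 after scaling. DGAT1, which turns diacylglycerol into triglyceride, averaged 0.403 ± 0.141 RPKM in vitrified TE and 0.0685 ± 0.0579 RPKM in fresh TE (log2 fold change 0.39, adjusted p = 9.2e-05), and 0.25 after scaling. DGAT2 stood at 0.0406 ± 0.0196 RPKM in vitrified TE and 0.012 ± 0.00724 RPKM in fresh TE, and was called as deposited (log2 fold change 0.04) and not after scaling. MOGAT2, the intestinal relative of MOGAT1, was listed at 0 in every library outside fresh TE and did not pass the filter.

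Of 10 tested lipid droplet and lipolysis genes 5 rose and 2 fell, and 3 rose and 4 fell after median-ratio scaling. Of all tested genes 69.0% were higher and 6.66% lower as deposited, and 35.2% and 27.4% after scaling. BSCL2, which encodes seipin of the droplet neck, rose by 1.46 (0.86 after scaling), and PNPLA2, the main triglyceride lipase, rose by 0.69 (0.50 after scaling). PLIN4, a droplet coat protein, fell by 0.14 on the log2 scale, and by 0.26 after scaling. Among 15 tested uptake and activation genes, SLC27A6 included, 4 rose and 2 fell as deposited. After scaling none rose and 8 fell, where 35.2% of all genes were higher and 27.4% lower. Without SLC27A6 4 rose and 1 fell of 14, and 7 fell after scaling. DBI, the acyl-CoA binding protein, averaged 66.7 ± 15.2 RPKM in vitrified TE and 147 ± 32.9 RPKM in fresh TE, a log2 fold change of -1.13 (adjusted p = 3.2e-06) and of -2.24 after scaling. DBI was also lower in vitrified than in fresh whole embryos (log2 fold change -1.25, adjusted p = 0.00046, and -1.57 after scaling), with means of 49.9 RPKM in vitrified whole embryos and 121 RPKM in fresh ones. FABP3, a cytosolic fatty acid binding protein, was higher in vitrified than in fresh TE as deposited (log2 fold change 1.31) but not called after scaling (0.39), and lower in vitrified than in fresh whole embryos (-0.66, adjusted p = 0.037). Mitochondrial fatty acid oxidation genes rose in 11 of 16 tested and fell in none as deposited, and rose in 1 and fell in 6 after scaling. As deposited that is near the share of all tested genes, 69.0%, and after scaling 35.2% of all genes were higher and 27.4% lower. ACADM, a medium-chain acyl-CoA dehydrogenase, was the one higher under both, with 0.53 and 0.33.

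Regulators rose in 8 and fell in 1 of 13 tested, and rose in 5 and fell in 5 after median-ratio scaling. Of all tested genes 69.0% were higher and 6.66% lower as deposited, and 35.2% and 27.4% after scaling. SREBF1, the transcription factor of fatty acid synthesis and desaturase genes, averaged 1.51 ± 0.413 RPKM in vitrified TE and 0.146 ± 0.0589 RPKM in fresh TE (SD, n = 7 and 5). Its log2 fold change was 1.12 (adjusted p = 1.7e-08) and 0.81 after scaling, opposite in sign to SCD and FADS2. PPARG averaged 0.00622 ± 0.00330 RPKM in vitrified TE and 0.0679 ± 0.0168 RPKM in fresh TE, with the same sign as FADS2, SLC27A6 and MOGAT1 (log2 fold change -0.09, adjusted p = 3.1e-09). PPARG averaged 0.00933 RPKM in the vitrified whole embryos and 0.00427 ± 0.00234 RPKM in fresh whole embryos. NR1H2, an oxysterol receptor, rose by 1.98 in vitrified against fresh TE and by 1.10 in vitrified against fresh whole embryos, and after scaling by 1.51 and 0.81. SREBF2, the main transcription factor of cholesterol synthesis genes, averaged 0.0579 ± 0.0153 RPKM in vitrified TE and 0.00229 ± 0.00336 RPKM in fresh TE. It was higher in vitrified TE under both scalings (log2 fold changes 0.08 and 0.06). In fresh TE, SREBF2, PPARG, DGAT1 and DGAT2 all stood far under 1 RPKM, and their recovered reads are not given here. INSIG1 and SCAP, which hold and escort the products of SREBF1 and SREBF2, had -0.16 and 0.02 as deposited (adjusted p = 0.26 and 0.81). Both were lower after scaling (-0.80 and -0.48).

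**Figure D4:**
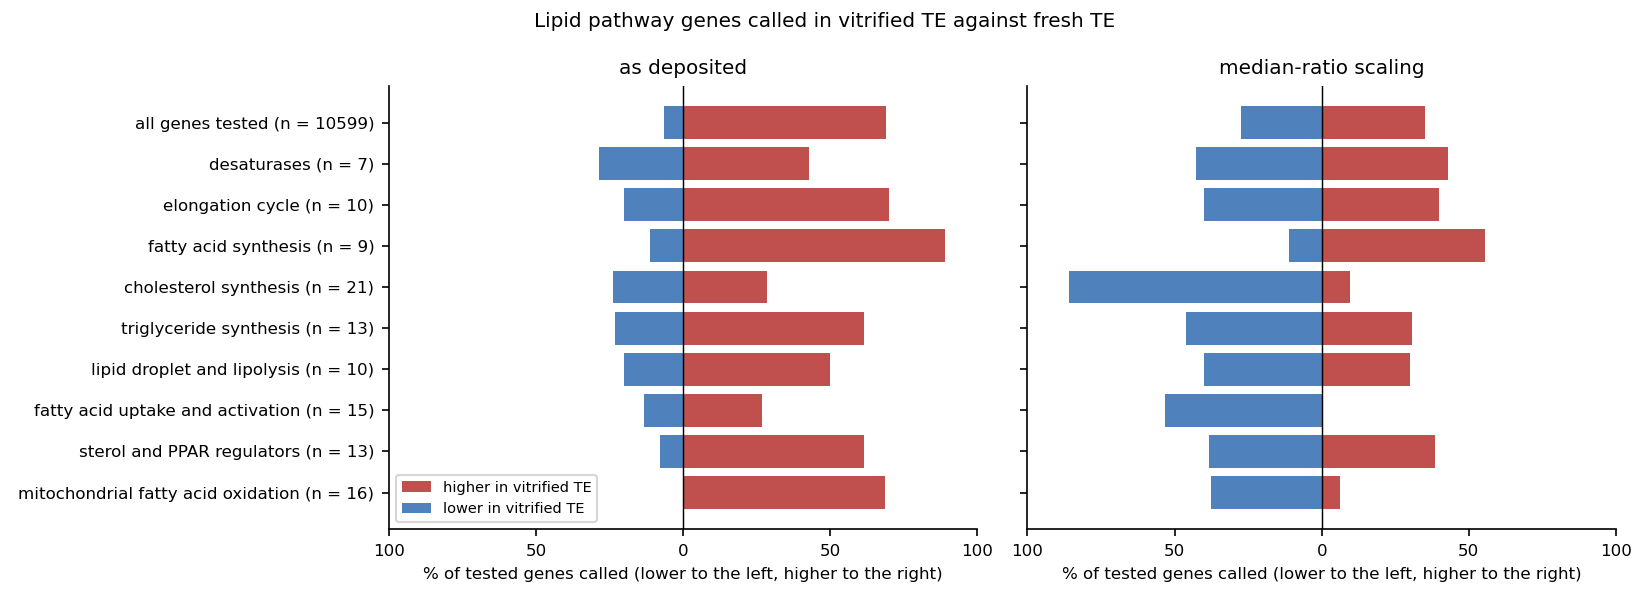
Share of the tested genes of each list called lower (blue, to the left) and higher (red, to the right) in vitrified TE against fresh TE, as deposited on the left and after median-ratio scaling on the right, beside all 10599 tested genes. Cholesterol synthesis had 5 of 21 genes lower as deposited and 18 after scaling, and mitochondrial fatty acid oxidation had 11 of 16 higher as deposited and 1 after scaling.

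The genes whose levels ran most like each member were taken from 3336 genes with a symbol and a mean of at least 1 RPKM, by Pearson's r over the 20 libraries after median-ratio scaling. They included TGM1 (r = 0.986) for FADS2, and were AKR1B1 (0.962) and PRPSAP1 (0.961) for SCD. For ELOVL1 they were GOLGA4 (0.982) and ISYNA1 (0.981), and for ELOVL5 CYP51A1 and PRR15 (0.972 each). FDFT1 ran most like HMGCS1 (0.924), which makes the precursor of mevalonate, and ALAS1 (0.923). MOGAT1 ran most like REEP5 (0.989) and ANKRD1 (0.988), and SLC27A6 like TPD52L2 (0.989) and DEFB (0.987). The libraries share their groups, so r here holds mostly the gap between fresh TE and the rest. As r of the deviations from group means, pooled over the 20 libraries, it was 0.86 for ELOVL5 and CYP51A1, a sterol demethylase. It was 0.67 for FDFT1 and HMGCS1, and 0.06 for MOGAT1 and REEP5. These r were not tested, and they hold the near-identical fresh TE pairs. The scaled SD of ELOVL5 was 0.563 RPKM in fresh TE, 0.047 in vitrified TE and 0.0856 in fresh whole embryos. Its pooled deviations were thus mostly those of the fresh TE libraries.

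Among samples of the same group the members showed no relation that passed the correction. The 21 pairs of members were compared in the 7 vitrified TE samples and in the 6 fresh whole embryos, 42 in all, with exact two-sided permutation tests. None passed an adjusted p of 0.05 under either scaling. The lowest adjusted p, by Pearson's r, was 0.233 as deposited and 0.217 after median-ratio scaling. As deposited and without adjustment, Pearson's r passed 0.05 for 3 pairs in vitrified TE and for none in fresh whole embryos. Spearman's rho passed for 2 and 1. After scaling r passed for 2 and 1, and rho for 3 and 1. As deposited, FADS2 and ELOVL1 in vitrified TE gave r = 0.875 and rho = 0.929 (exact permutation p = 0.0111 and 0.00675, adjusted p = 0.233 and 0.283). Without the 2 samples farthest from the median of FADS2, r was 0.981.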

How the data were processed

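The deposited table held RPKM values per gene and sample with an offset of 0.01, per the values themselves. STAR 2.5.3a with the UMD3.1 assembly, FastQC and Partek were used, per the submitters' processing notes. How reads were counted, with which strand setting and aligner options, and how the listed genes were selected is not given in the sources used here. After subtraction of the offset, 94.4 to 95.8% of values under 1000 reads fell within 0.1 of whole reads when multiplied by genomic span (median 16.8 kb), which gave the totals. No intervals were computed from the reads. All columns were mapped to samples by their names. Coordinates are those of the table.

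The filter asked for 10 or more recovered reads in 2 or more libraries. Genes were tested on log2(RPKM + 1) with limma 3.58.1 in R 4.3.3 (statmod 1.5.0; lmFit, eBayes with trend and robust fitting) in a fit of all 20 samples with a mean per group. The steps were tested on simulated data. Adjusted p is by Benjamini and Hochberg over all 10599 tested genes of a comparison (threshold 0.05). The plan took normalized values as given, and no count test was the main result.

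The members and lists were chosen with earlier results of these data known. Other named genes were the non-members with the smallest p in vitrified against fresh TE, at most 3 in a list, a fixed set of regulators and neighbours, and for each member the 2 genes with the highest r. CDC20 was added after its place was seen. Some genes that this rule names are not reported here. Markers of mesoderm, endometrium and blood were summed too. Of 10 mesoderm markers 5 were found, at 1.16 to 4.60 RPKM in vitrified TE, 0.559 to 2.42 in fresh TE, 0.916 and 7.84 in vitrified whole embryos and 1.07 to 2.09 in fresh whole embryos. Of 12 endometrium markers 7 were found, at 4.71 to 10.6 RPKM in vitrified TE, 2.05 to 3.33 in fresh TE, 5.75 and 9.08 in vitrified whole embryos and 4.56 to 10.3 in fresh whole embryos. Of 12 blood markers 7 were found, at 4.42 to 7.23 RPKM in vitrified TE and 9.80 to 15.9 in fresh TE. Their sums were 3.75 and 5.55 in vitrified whole embryos and 3.94 to 5.64 in fresh whole embryos. CD74 of that list was at 0 in all fresh TE libraries and did not pass the filter. After median-ratio scaling the endometrium sums of vitrified TE (3.82 to 8.37) and fresh TE (3.47 to 5.78) overlapped, and the blood sums (3.69 to 5.85 in vitrified TE, 17.1 to 27.5 in fresh TE) did not. Alternatives were other scalings, pseudocount, filter, sample weights, groups in the fit, replicate number as a block, averaging of near-identical libraries and leaving out each sample. Read-precision weights were added after the data were seen.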

Additional observations from a re-analysis of the deposited data

Results flagged for a closer look

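All 7 genes were called in the interaction term of limma on the log2(RPKM + 1) scale (difference of vitrified and fresh, whole embryo minus TE). The interaction holds the fresh TE libraries and only 2 vitrified whole embryos. A difference of handling, sequencing or cell content of fresh TE and an effect of vitrification cannot be told apart in it. The difference was 1.65 for FADS2, 0.89 for SCD, -2.12 for ELOVL1, 0.55 for ELOVL5, 0.79 for FDFT1, 1.53 for MOGAT1 and 0.58 for SLC27A6. The adjusted p was 2.3e-06 for FADS2, 0.0023 for SCD, 1.5e-06 for ELOVL1 and 0.0041 for ELOVL5. It was 8.0e-05 for FDFT1, 1.7e-07 for MOGAT1 and 3.3e-07 for SLC27A6. Across all tested genes 3.98% were called higher and 28.4% lower (32.3% in all). FADS2, MOGAT1, ELOVL5 and SLC27A6 were lower in all 7 vitrified TE libraries than in all 5 fresh ones, with overlap between vitrified and fresh whole embryos. ELOVL1 was higher in every vitrified library of either kind. No library stood far from the others of its group in the 21 tests made on groups of 5 to 7.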

How the results depend on the processing

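Most values kept their direction and side of the threshold: 1205 of the single-member values, with 34 reversed, 45 no longer called and 11 newly called. All 7 interactions kept both, except ELOVL5 with sample weights (0.45, adjusted p = 0.103). In vitrified against fresh TE, FDFT1 was reversed with median-ratio scaling (-0.56), listed-gene scaling (-0.29), quantile normalization (-0.62) and read-precision weights after median-ratio scaling (-0.86). Those settings raise fresh TE against the other libraries, and which scaling is right was not tested. As deposited it became a called rise (2 members higher) with the replicate block, sample weights or only the groups compared, and the number of members higher was 1 to 2 when 1 sample was left out. Other reversals were of uncalled differences near 0. In vitrified against fresh whole embryos these were FADS2 with median-ratio scaling (-0.025), quantile normalization (-0.049) and read-precision weights after median-ratio scaling (-0.15), MOGAT1 with quantile normalization (-0.025) and SLC27A6 with the replicate block (0.0085). In vitrified whole embryo against vitrified TE, ELOVL1 (0.12) and SLC27A6 (0.011) reversed with the replicate block. In vitrified TE against fresh whole embryo, ELOVL5 reversed with median-ratio scaling (-0.01), quantile normalization (-0.031) and the replicate block (-0.0036). When 1 sample was left out, the log2 fold change in vitrified against fresh whole embryos ran from -0.036 to 0.098 for FADS2 and from -0.010 to 0.0067 for SLC27A6. In vitrified whole embryo against vitrified TE it ran from -0.101 to 0.087 for ELOVL1, from -0.097 to 0.026 for SCD and from -0.0090 to 0.0080 for SLC27A6. In vitrified TE against fresh whole embryo it ran from -0.012 to 0.049 for ELOVL5 and from -0.0043 to 0.0013 for SLC27A6. In vitrified whole embryo against vitrified TE the 2 members higher became 0 with median-ratio scaling, listed-gene scaling, quantile normalization, the replicate block, sample weights and read-precision weights after median-ratio scaling. They became 1 with a pseudocount of 0.1, no filter or only the groups compared, and 0 to 2 when 1 sample was left out. The 1 member lower became 0 with only the groups compared, the replicate block and sample weights, and 0 to 1 when 1 sample was left out. In vitrified TE against fresh whole embryo 1 member, MOGAT1, became lower with median-ratio scaling, quantile normalization and read-precision weights after median-ratio scaling, and 0 to 1 were lower when 1 sample was left out.

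Counts over all genes moved more. The 7311 genes higher in vitrified against fresh TE became 3732 with median-ratio scaling, 2776 with quantile normalization and 3356 with read-precision weights after median-ratio scaling. The 706 genes lower became 2907, 4100 and 2810 with the same settings, 1665 with listed-gene scaling and 1555 with no filter. In fresh whole embryo against fresh TE the 6364 genes higher became 3180 with median-ratio scaling, 4204 with listed-gene scaling, 2504 with quantile normalization and 2939 with read-precision weights after median-ratio scaling. The 633 genes lower became 2653, 1696, 3675 and 2602 with these, and 1361 with no filter. The 2852 genes higher in vitrified against fresh whole embryos became 1121 with median-ratio scaling, 920 with quantile normalization, 1611 with sample weights and 1381 with read-precision weights after median-ratio scaling. The 418 genes lower became 741, 651, 152 and 931 with these, 236 with only the groups compared and 254 with the replicate block. When 1 sample was left out they ran from 962 (without vitrified whole embryo 2) to 3107 higher and from 175 to 470 lower. In vitrified whole embryo against vitrified TE the 1617 genes higher became 343 with median-ratio scaling, 898 with listed-gene scaling, 275 with quantile normalization, 1069 with a pseudocount of 0.1, 705 with only the groups compared, 676 with the replicate block, 155 with sample weights and 526 with read-precision weights after median-ratio scaling. The 381 genes lower became 219 with quantile normalization, 81 with only the groups compared, 114 with the replicate block, 20 with sample weights and 227 with read-precision weights. When 1 sample was left out they ran from 115 (without vitrified whole embryo 2) to 1900 higher and from 24 to 505 lower. For the interaction the 422 genes higher became 1481 with median-ratio scaling, 977 with listed-gene scaling, 2064 with quantile normalization and 1387 with read-precision weights after median-ratio scaling, and the 3005 lower became 1395, 1748, 1199 and 1621. When 1 sample was left out they ran from 264 to 625 higher and from 1979 to 3220 lower. Where only 1 vitrified whole embryo was left, it was assumed to vary like the samples of the other groups. Apart from the scalings, the cause of these shifts was not tested. Of 22 same-numbered pairs of samples of different groups 7 had r over 0.1, with r from -0.233 to 0.368. Of these, 5 were among the 6 numbers shared by vitrified TE and fresh whole embryos (r of 0.115 to 0.368), where number 2 had -0.111. No 2 groups had r over 0.1 in every number they share, so the numbers were not taken as a pairing, and the block is given as a setting alone. The fit of only the groups compared had no separate value for the interaction, which uses all 4 groups. Of the 7 members, depth limits SLC27A6 most, with 1 to 23 reads in each library outside fresh TE.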
